A study of Boechera gunnisoniana with 7 samples.

Results

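The genes that write, maintain and remove DNA methylation were followed across 7 ATH1 arrays hybridized with RNA from the ovule of *Boechera gunnisoniana*, a triploid pseudogamous obligate apomict related to *Arabidopsis*. The members were 10 *Arabidopsis* genes chosen by identifier: the maintenance methyltransferase *MET1* (AT5G49160), the chromomethylases *CMT3* (AT1G69770) and *CMT2* (AT4G19020), the *de novo* methyltransferases *DRM1* (AT5G15380) and *DRM2* (AT5G14620), the chromatin remodeller *DDM1* (AT5G66750), and the demethylating DNA glycosylases *DME* (AT5G04560), *ROS1* (AT2G36490), *DML2* (AT3G10010) and *DML3* (AT4G34060). Of these, 9 had a row among the 21428 genes of the table, and *DML3* was not analysed here.

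The AIC, the apomictic initial cell that takes the place of the megaspore mother cell, and the sporophytic nucellus tissue around it were each profiled on 2 arrays. Of the mature female gametophyte, egg cells, central cells and synergid cells were profiled on 1 array each. Every sample was a pool of cells or tissue cut out by laser-assisted microdissection from greenhouse plants of the same species with no treatment in the labels, and its RNA was amplified linearly before hybridization. According to the methods, AIC ovules came from buds and ovules with mature gametophytes from flowers emasculated some hours before fixation, so that this handling and the stage cannot be told apart. The AIC samples can carry some nucellus and the gametophytic samples some neighbouring gametophytic cells. The age of the plants was not given in the sources used here, and no sexual plant entered the comparison.

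In *Arabidopsis*, MET1 copies methylation at CG sites after replication, CMT3 and CMT2 methylate sites outside CG on nucleosomes that carry a repressive histone mark, and DRM2 is guided to its targets by small RNAs. DDM1 opens compact chromatin so that methyltransferases such as MET1 and CMT2 can reach transposons. DME, ROS1 and their relatives cut methylated cytosine out of the DNA, and DME acts in the central cell, where it activates maternally expressed imprinted genes.

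Values are log2-scale expression values as deposited. Because the probes were designed on *Arabidopsis* and the RNA came from another species, a low value may reflect a poor match as well as little transcript, so levels were compared between arrays for the same gene. The background limit and percentiles used below place a probe set on its array and do not rank genes by amount of transcript. In samples of pooled cells, fewer cells that express a gene and less RNA per cell cannot be told apart. A background limit was set for each array from the lower side of the distribution of all genes, and it lay between 4.08 and 4.66. It describes the array and is no presence call of the study. As a stricter limit, the upper quartile of all genes lay between 4.99 and 5.08.

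The median of all genes was at most 4.16 on the 7 arrays. Pearson's r across genes, which are not independent replicates, lay between 0.770 and 0.927. The highest value joined AIC 1 to nucellus 1, and thus arrays with different labels. AIC 1 with AIC 2 reached 0.907, and nucellus 1 with nucellus 2 only 0.853, below the 0.856 of AIC 1 with nucellus 2. The egg cell array was most like AIC 2, at 0.879. Arrays with the same label were therefore not always the most alike. For the central and synergid cells the SD over all genes was 1.11 and 1.24, against 1.38 to 1.44 on the other arrays, and the mean of the 18 hybridization control features was 11.4 and 12.5, against 9.25 to 10.7. Markers of the cell types were read as a check of the labels. *MYB98* (AT4G18770), a synergid transcription factor, read 6.61 on the synergid cell array and at most 3.91 on the others. Of 4 central cell genes, *FWA* (AT4G25530) read 4.85 on the central cell array and at most 3.99 elsewhere, and *AGL61* (AT2G24840) 4.53 there and at most 4.28 elsewhere, the latter in the egg cell, where alone it passed the limit. *AGL80* (AT5G48670) was highest there, at 6.60, but was above the background limit on all 7 arrays, with 6.10 in the egg cell and 6.14 in the synergid cells. *FIS2* (AT2G35670) was highest on the egg cell array, at 4.16 against 3.81 in the central cell, and was below the limit throughout. Of 5 egg cell genes of the EC1 family 2 were in the table, and both lay below the background limit on all 7 arrays, the egg cell array included. *INO* (AT1G23420), a gene of the outer integument, read 7.14 on the nucellus 1 array and between 4.20 and 5.08 on the others, so that both nucellus arrays differed in this marker. Of 7 nucellus and integument genes 1, the epidermal gene *ATML1* (AT4G21750), was above the limit on all arrays and 4 on none. *INO* was above it on 6 arrays, those of the 3 gametophytic cells included, and *ANT* (AT4G37750) on the AIC 2 array alone, at 4.61. No gene of this list was thus above the limit on the nucellus arrays alone. Of 3 measured genes of the megaspore mother cell and meiosis, 2 passed on the AIC 1 array, 0 on the AIC 2 array, 1 on the nucellus 1 array and 1 on the egg cell array, so that the label of the AIC 2 array had no marker above the limit.

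Only *CMT2* and *DRM1* exceeded the background limit on all 7 arrays, whereas *MET1*, *ROS1* and *DML2* exceeded it on none. The share of all genes that did so on all 7 arrays or on none was not counted, so these counts describe the members alone. *CMT3* was above the limit on 6 arrays, *DRM2* on 5, and *DME* and *DDM1* on 1 array each, in both cases that of the egg cell. By array, 6 of 9 members were above the limit on the egg cell array, where 43.8% of all genes were. In AIC 1 and 2 there were 4 members (45.4% of all genes) and 2 members (34.5%) above it, and in nucellus 1 and 2 there were 4 (47.1%) and 4 (40.0%). The central cell had 3 such members (34.8% of all genes) and the synergid cells had 4 (39.5%). The egg cell array was therefore the only array with more than 4 members above the limit, and on no array was the number of members tested against the share of all genes. The limits differed, at 4.21 for the egg cell, 4.59 for AIC 2 and 4.66 for the central cell, with 4.15 for AIC 1 and 4.08 for nucellus 1. *DRM2* had the same value, 4.39, in AIC 2 and the egg cell and passed only in the latter, so these counts do not compare amounts of transcript. With the upper quartile as the limit, 4 members passed on the egg cell array and 1 to 3 on each of the others.

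**Figure D1:**
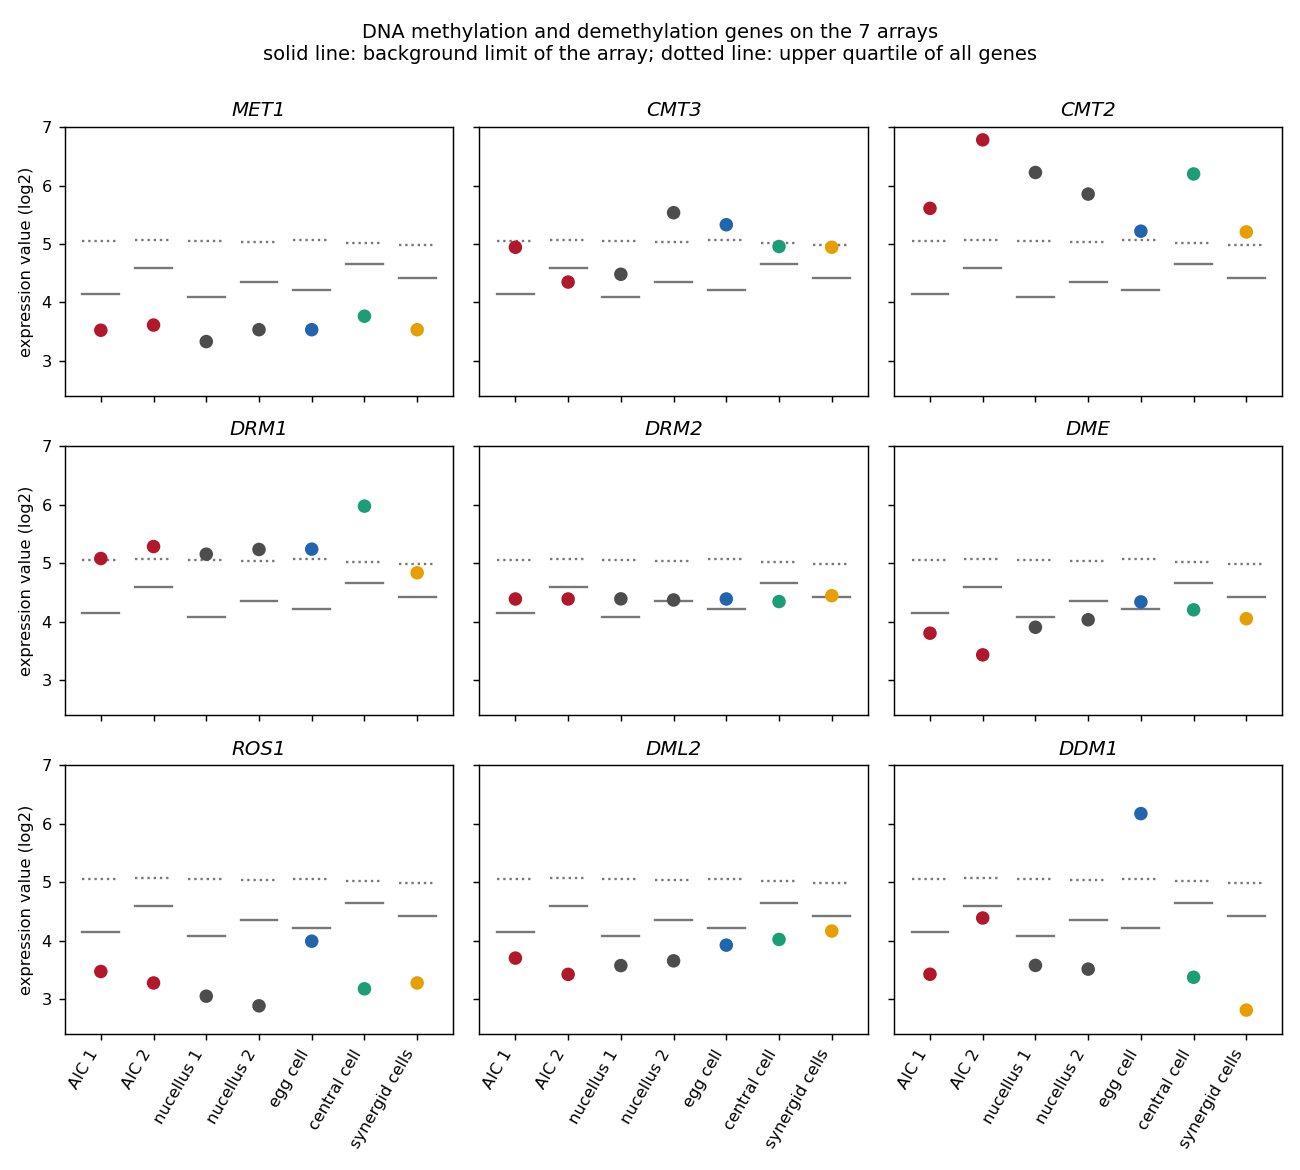
Each panel shows the log2 expression value (vertical axis) of a gene on the 7 arrays (horizontal axis, red AIC, grey nucellus, blue egg cell, green central cell, orange synergid cells), with the background limit of each array as a solid line and the upper quartile of all genes as a dotted line. *DDM1* on the egg cell array, at 6.18, stands far above its other values, while *DRM2* stays between 4.34 and 4.44 on all arrays and *MET1* stays below the limit on all arrays.

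*MET1* read 3.52 and 3.61 in AIC 1 and 2, 3.33 and 3.53 in nucellus 1 and 2, 3.53 in the egg cell, 3.76 in the central cell and 3.53 in the synergid cells. All 7 values lay below the background limit of their array, at percentiles between 24.2 and 34.8 among all genes of the array. The values of the nucellus 2, egg cell and synergid cell arrays were exactly equal in the deposited table, and no gap between neighbouring cell types in the order of the means was larger than the gap of 0.20 between both nucellus arrays. *RBR1* (AT3G12280) and *MSI1* (AT5G58230), which repress *MET1* in the female gametophyte of *Arabidopsis*, were above the limit on all 7 arrays. *RBR1* read between 6.44 in the central cell and 8.04 in nucellus 1, and *MSI1* between 6.40 on the synergid cell array and 7.38 on the nucellus 2 array.

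Among the chromomethylases, *CMT2* read 5.61 and 6.78 in AIC 1 and 2, 6.22 and 5.85 in nucellus 1 and 2, 5.22 in the egg cell, 6.20 in the central cell and 5.21 in the synergid cells. It was the only member above the upper quartile of all genes on all 7 arrays, with percentiles between 77.6 on the egg cell array and 93.7 on the AIC 2 array. The egg and synergid cell arrays were lowest, and the mean of the gametophytic cells differed from that of the AIC and nucellus by -0.58 ± 0.37 (SE). This value was -0.28 without AIC 2, -0.87 without AIC 1, -0.90 without the central cell array and -0.32 with quantile normalization. It was within the gap of 1.17 between both AIC arrays, and no pair of neighbouring cell types differed by more than that gap.

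*CMT3* read 4.94 and 4.35 in AIC 1 and 2, 4.48 and 5.54 in nucellus 1 and 2, 5.33 in the egg cell, 4.96 in the central cell and 4.94 in the synergid cells. The AIC 2 value was the only one below the background limit. Both nucellus arrays lay 1.05 apart and spanned all cell types but the AIC 2 array, so that no order of the cell types held beyond the spread within a pair. *CMT1* (AT1G80740), another chromomethylase gene, was also above the limit on all 7 arrays, with values between 5.64 and 6.49, while 3 other measured methyltransferase-like genes passed on 3 arrays or fewer. The widest range of these was that of *DRM3* (AT3G17310), a relative of *DRM2*, with 4.99 in AIC 2, 4.82 in the central cell, 3.48 in the synergid cells and between 3.85 and 4.09 on the other arrays.

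*DRM1* read 5.08 and 5.28 in AIC 1 and 2, 5.15 and 5.23 in nucellus 1 and 2, 5.24 in the egg cell, 5.98 in the central cell and 4.84 in the synergid cells. The first 5 of these values lay within 0.20 of each other, while the central cell was higher and the synergid cells were lower. In the order of the means, the central cell stood 0.74 above the egg cell and the synergid cells 0.35 below the AIC, and both gaps exceeded the larger pair gap of 0.20. On the central cell array *DRM1* was at percentile 91.2 of all genes, against 71.7 to 78.6 on the other arrays. The central cell exceeded the mean of egg and synergid cells by 0.94 ± 0.16 (SE), which did not pass limma's test after Benjamini-Hochberg adjustment over all genes (adjusted p = 0.190). The central and synergid cell arrays are also those with the narrowest spread and the brightest control features, and the part of this in the result was not tested.

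*DRM2* read 4.39 in both AIC samples, 4.39 and 4.37 in nucellus 1 and 2, 4.39 in the egg cell, 4.34 in the central cell and 4.44 in the synergid cells. The range of 0.10 was smaller than that of nearly all genes, since 0.313% of them had a smaller range. Both AIC values and the egg cell value were exactly equal in the deposited table. Equal values on at least 2 arrays occurred for 38.2% of all genes and for 4 of the 9 members, and were not interpreted as equal transcript levels. The values lay 0.01 to 0.31 from the limits, above them on 5 arrays and below them on the AIC 2 and central cell arrays. In the order of the means, the gaps of 0.06 from the synergid cells to the AIC and 0.04 from the nucellus to the central cell exceeded the larger pair gap of 0.02. A gap beyond the pair gap can thus be very small, and the share of all genes with such gaps was not counted.

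*DDM1* had the widest range of the 9 members, 3.36 or 10.3-fold, and 4.10% of all genes had a wider range. It read 3.43 and 4.39 in AIC 1 and 2, 3.58 and 3.52 in nucellus 1 and 2, 6.18 in the egg cell, 3.38 in the central cell and 2.82 in the synergid cells. The egg cell value, at percentile 88.6 of all genes, was the only one above the background limit and lay 1.79 above the next value, that of the AIC 2 array. The synergid value was at percentile 3.03. In the order of the means, the egg cell was separated from the AIC by more than the larger pair gap of 0.96, and the other 4 cell types were not separated from their neighbours.

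**Figure D2:**
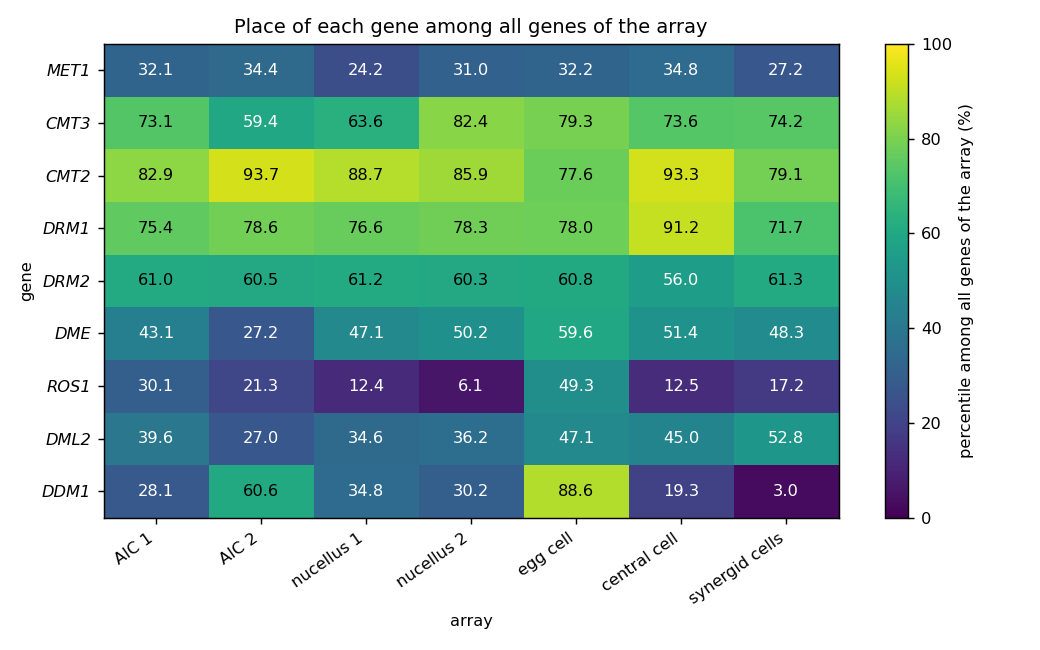
Each cell gives the percentile of a gene (vertical axis) among all 21428 genes of an array (horizontal axis), with the colour scale running from 0 to 100%. *DDM1* goes from 3.0 on the synergid cell array to 88.6 on the egg cell array, *CMT2* is at 77.6 or higher on all arrays, and *ROS1* is at 49.3 on the egg cell array and at 30.1 or lower elsewhere.

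Among the glycosylases, *DME* read 3.80 and 3.43 in AIC 1 and 2, 3.90 and 4.03 in nucellus 1 and 2, 4.34 in the egg cell, 4.20 in the central cell and 4.05 in the synergid cells. The values on the AIC arrays were the lowest, and those of the 3 gametophytic cells lay above all 4 values of the younger stage. How many of all genes separate in this way was not counted. The egg cell value exceeded the background limit by 0.13, and no gap between neighbouring cell types exceeded the gap of 0.37 between both AIC arrays. On the central cell array, where the activity of DME is best known, the value was below the limit, with a difference of -0.45. The central cell and the mean of egg and synergid cells differed by 0.01 ± 0.22 (SE).

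*ROS1* read 3.48 and 3.28 in AIC 1 and 2, 3.05 and 2.89 in nucellus 1 and 2, 3.99 in the egg cell, 3.18 in the central cell and 3.28 in the synergid cells. The egg cell value was the highest and differed from its background limit by -0.22, and the others by -0.67 or a larger negative amount. In the order of the means, the gap of 0.62 from the egg cell to the AIC exceeded the larger pair gap of 0.20. The gap of 0.21 from the central cell to the nucellus exceeded it narrowly. *ROS1* is known in *Arabidopsis* to fall where methylation is lost, and no methylation was measured here.

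*DML2* read 3.71 and 3.43 in AIC 1 and 2, 3.58 and 3.66 in nucellus 1 and 2, 3.93 in the egg cell, 4.02 in the central cell and 4.17 in the synergid cells. All values lay below the limit, and the 3 gametophytic cells lay above all 4 AIC and nucellus values. As for *DME*, the share of all genes with this separation was not counted. The step from the nucellus to the egg cell, 0.31, was the only gap beyond the pair gap of 0.28.

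To ask whether the AIC differed from the tissue around it, both pairs were compared in a limma fit of all 7 arrays. After Benjamini-Hochberg adjustment 0 of 21428 genes (0.0%) and 0 of 9 members passed the threshold of 0.05, while 819 genes (3.82%) and 0 members had an unadjusted p below 0.05. A difference of at least 1 was found for 5.37% of all genes and for 0 members. Both AIC arrays lay above both nucellus arrays for *ROS1* alone (12.7% of all genes), and below them for *DME* alone (14.3% of all genes). The AIC mean minus the nucellus mean was 0.41 ± 0.14 (SE) for *ROS1* and -0.35 ± 0.18 for *DME*, both with an adjusted p of 0.938 in limma. The value of *DME* was -0.17 without AIC 2 and -0.54 without AIC 1. All AIC and nucellus values of these genes were below the background limits. The other members had differences between -0.36 ± 0.48 for *CMT3* and 0.36 ± 0.39 for *DDM1*. Without the AIC 2 array the difference of *DDM1* became -0.12, and without the nucellus 2 array that of *CMT3* became 0.16. The standard errors were widest for the chromomethylases and *DDM1*, and no difference between AIC and nucellus was detectable for any member with 2 arrays per group.

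**Figure D3:**
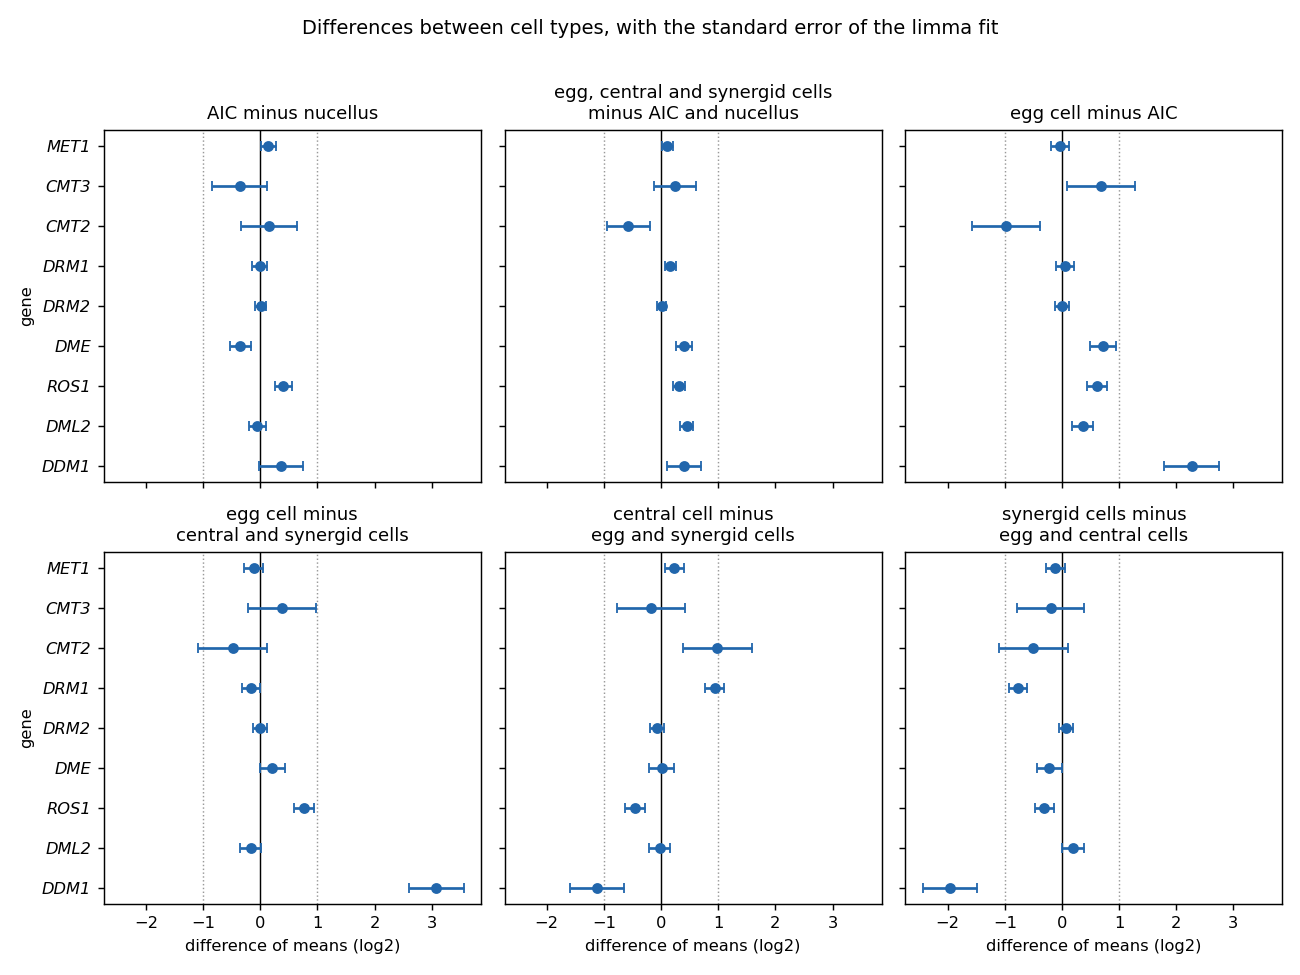
Each panel shows the difference of means (log2, horizontal axis) for the 9 genes (vertical axis) in a comparison between cell types, with the SE of the limma fit as bars and dotted lines at -1 and 1. *DDM1* lies at 2.27 for the egg cell against the AIC and at 3.08 against the central and synergid cells, and all other genes lie within -1 and 1 in all 6 comparisons.

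The mature gametophyte was compared with the younger stage as the mean of egg, central and synergid cells against the mean of AIC and nucellus. Here 0 genes (0.0%) passed limma's adjusted test, and 4240 genes (19.8%) had an unadjusted p below 0.05. Of the members only *DML2* did, with a difference of 0.45 ± 0.12 (adjusted p = 0.204). The differences of *DME*, 0.40 ± 0.14, and *ROS1*, 0.31 ± 0.11, had the same sign. A positive difference was found for 8 of 9 members, *CMT2* being the exception, and for 56.9% of all genes, and is not particular to the glycosylases. The value of *ROS1* rested on the egg cell array, without which it was 0.06, and that of *DDM1*, 0.39 ± 0.30, became -0.63 without that array. None of the members differed by 1 or more, as 6.29% of all genes did. Each gametophytic group had 1 array and was assumed to vary like the pairs.

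The egg cell was set against the AIC as the cell that forms the embryo against the cell from which the gametophyte derives. In limma 0 genes (0.0%) passed after adjustment, and 2146 genes (10.0%) and 3 members had an unadjusted p below 0.05. These 3 members were *DDM1*, *DME* and *ROS1*, all higher in the egg cell. *DDM1* differed by 2.27 ± 0.48 (SE), or 4.81-fold (adjusted p = 0.357), and was the only member to differ by at least 1, as 9.62% of all genes did. Its difference was 1.79 against the AIC 2 array alone and 2.75 against the AIC 1 array alone. *DME* was 0.72 ± 0.22 and *ROS1* 0.62 ± 0.17 higher, with adjusted p of 0.479 and 0.446 in limma. *CMT2* differed by -0.98 ± 0.60 and *CMT3* by 0.68 ± 0.59, with a gap between both AIC arrays of 1.17 and 0.60. Leaving out AIC 2 and AIC 1 in turn gave -0.39 and -1.56 for *CMT2* and 0.38 and 0.98 for *CMT3*, and *DRM2* had a difference of 0.00.

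Within the gametophyte each cell was compared with the mean of the remaining cell types, and 0 genes (0.0%) passed limma's adjusted test in any of these comparisons. For the egg cell 3663 genes (17.1%) had an unadjusted p below 0.05, among them *DDM1* and *ROS1*. *DDM1* was 3.08 ± 0.48 higher in the egg cell, or 8.46-fold (adjusted p = 0.197), and was the only member with a difference of at least 1 (11.6% of all genes). *ROS1* was 0.76 ± 0.17 higher (adjusted p = 0.229). The median difference of all genes in this comparison was -0.12, so that values near that size do not stand apart from the bulk of the genes.

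For the central cell 3568 genes (16.7%) and, of the members, *DRM1* alone had an unadjusted p below 0.05, and 10.7% of all genes differed by at least 1. *DDM1* was the only member past a difference of 1, at -1.12 ± 0.48 against a mean that includes the egg cell. With quantile normalization *CMT2* and *DRM1* passed it as well, at 1.49 and 1.35 above the egg and synergid cells. *CMT2* was 0.99 ± 0.60 higher in the central cell (adjusted p = 0.529 in limma). For the synergid cells 2726 genes (12.7%) had an unadjusted p below 0.05, among them *DRM1*, at -0.77 ± 0.16, and *DDM1*, at -1.96 ± 0.48. *DDM1* was again the only member with a difference of at least 1 (7.95% of all genes). The comparisons within the gametophyte share arrays and are not independent of each other.

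The other genes of the pathway were read from lists written by identifier, with names and roles known from *Arabidopsis* and not checked against an annotation. In each of the 6 comparisons 0 genes of these lists passed limma's adjusted test. For the counts of list genes above the limit on all 7 arrays or on none, the share of all genes was not counted. Of 18 measured genes of RNA-directed DNA methylation, in which small RNAs guide DRM2, 6 were above the background limit on all 7 arrays and 6 on none. *AGO4* (AT2G27040), the small RNA-binding protein of this pathway, read between 6.31 in the central cell and 7.75 in AIC 2. *KTF1* (AT5G04290), which binds Argonaute proteins, read between 5.33 and 6.47. *DCL3* (AT3G43920), which cuts the small RNAs, read 5.88 and 5.06 on the AIC arrays and 4.38 and 3.74 on the nucellus arrays, a difference of 1.41 ± 0.42 with an adjusted p of 0.938 in limma.

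*AGO6* (AT2G32940), a relative of *AGO4*, had the widest range of this list, 3.95, and shared its highest 2 arrays with *DDM1*. It read 7.20 on the egg cell array, 5.10 on the AIC 2 array, 4.15 on the central cell array and between 3.25 and 3.59 on the other 4. The egg cell was 3.03 ± 0.90 above the AIC (adjusted p = 0.467) and 3.33 ± 0.90 above the central and synergid cells (adjusted p = 0.250, both by limma). In both genes the egg cell array was highest and the AIC 2 array came next, but the order of the other 5 arrays differed, with *DDM1* lowest in the synergid cells and *AGO6* in AIC 1.

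**Figure D4:**
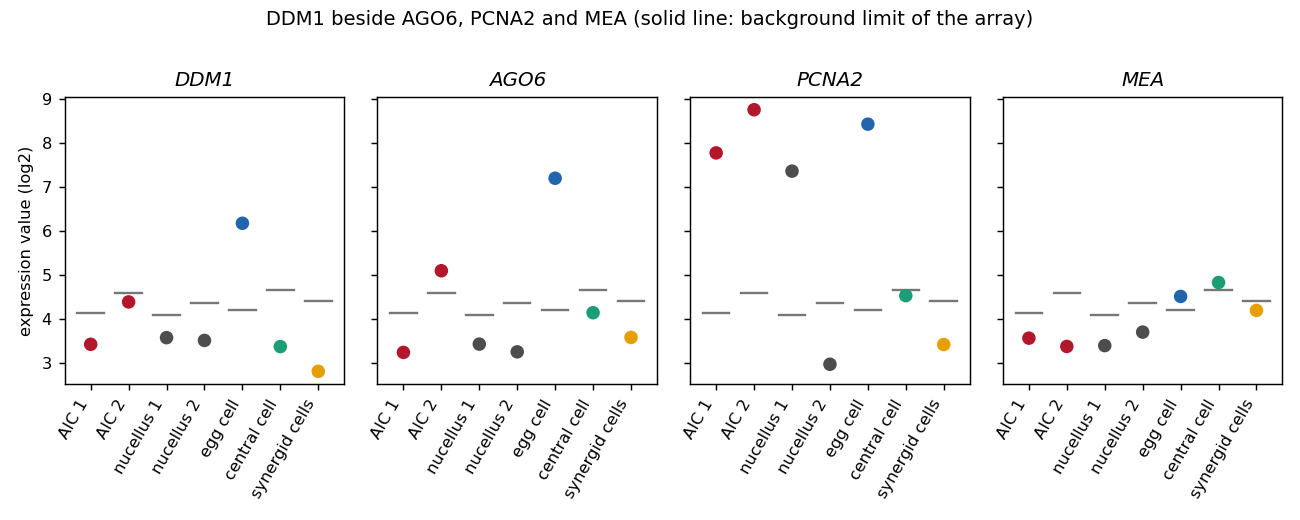
The log2 expression values (vertical axis) of *DDM1*, *AGO6*, *PCNA2* and *MEA* are shown on the 7 arrays (horizontal axis, red AIC, grey nucellus, blue egg cell, green central cell, orange synergid cells), with the background limits as solid lines. *DDM1* and *AGO6* are highest on the egg cell array, at 6.18 and 7.20, *PCNA2* is high on 4 arrays, and *MEA* is above the limit on the egg and central cell arrays only.

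Of 8 measured cofactors of maintenance methylation, 3 were above the limit on all 7 arrays and 1 on none. *VIM1* (AT1G57820), which recruits MET1 to newly copied DNA, read 5.85 in the central cell, 5.11 in the synergid cells, 4.22 and 5.02 in nucellus 1 and 2, 4.33 in the egg cell and at most 4.51 in the AIC. *HDA6* (AT5G63110), a histone deacetylase that works with MET1, was lowest on the synergid cell array, at 4.54, and highest on the central cell array, at 6.20. The central cell array thus had the highest value for *DRM1*, *VIM1* and *HDA6*, and for *MET1* below the limit. Among all genes 24.7% were highest on that array, 12.8% on the egg cell array, and of the members 2 and 3.

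Of 12 measured partners of demethylation, 4 were above the limit on all 7 arrays and 3 on none. *IDM1* (AT3G14980), a histone acetyltransferase that gives ROS1 access to its targets, read between 5.31 and 5.57 on the AIC, nucellus and egg cell arrays, 6.85 in the central cell and 7.06 in the synergid cells. The egg cell minus the mean of the central and synergid cells was -1.48 ± 0.13 (adjusted p = 0.165 in limma). *LIG1* (AT1G08130), a DNA ligase that closes the gap left by repair, read 7.49 and 6.64 in AIC 1 and 2, 7.04 and 4.92 in nucellus 1 and 2, 6.81 in the egg cell, 5.07 in the central cell and 4.89 in the synergid cells. *SSRP1* (AT3G28730), a histone chaperone needed with DME, stayed between 6.31 and 6.63.

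Of 4 genes known to be imprinted or to depend on DME, 2 were above the limit on at least 1 array. *MEA* (AT1G02580), a Polycomb gene, read 3.57 and 3.38 in AIC 1 and 2, 3.40 and 3.71 in nucellus 1 and 2, 4.52 in the egg cell, 4.83 in the central cell and 4.20 in the synergid cells, so that the egg and central cell values alone were above their limits. The gametophytic cells were 1.00 ± 0.13 above the AIC and nucellus (adjusted p = 0.145 in limma). *FWA* was above the limit on the central cell array alone, where it was 1.27 ± 0.19 above the egg and synergid cells (adjusted p = 0.187 in limma). *DME* itself was below the limit on that array.

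For the member whose probe set had the highest mean over the 7 arrays, *CMT2*, and for that with the widest range, *DDM1*, the genes with the most similar pattern were sought among those above the limit on at least 2 arrays. For *CMT2* they were AT5G43870, AT5G56540 and AT3G50080, with Pearson's r of 0.967, 0.963 and 0.946 over 7 arrays. For *DDM1* they were AT1G15750, AT1G71010 and AT2G34740, with r of 0.994, 0.991 and 0.984 over 7 arrays. The r values for *DDM1* rest largely on the egg cell array, where the 3 genes read 5.44, 7.25 and 4.85, each the highest of its 7 values. AT1G15750 had exactly the same value, 4.12, on 3 arrays. These correlations are descriptions of 7 arrays, chosen as the highest among 10690 genes for *CMT2* and 10691 for *DDM1*.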

How the data were processed

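Pooled cells and tissue from laser-assisted microdissection were profiled on 7 ATH1 arrays. The values deposited by the authors are on the log2 scale, for gene-wise probe sets of the ATH1 array (brainarray TAIRG, version 14). RMA is named for the values of heatmaps, and how the deposited log2 values were normalized is not stated in these sources. The 64 control features were left out of all counts and tests.

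The members were given by *Arabidopsis* identifier. The members and the lists of other genes were chosen with earlier results of these data known. All members were described on every array, and of each list at most 4 genes were named, taken from those with the highest means and those with the widest ranges. The 4 central cell markers were all given. No sequence was used here.

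The background limit of an array was found from the mode of all gene values (Gaussian kernel density) by reflecting the values below the mode about it and taking the upper tail of 0.02. On 10 simulated arrays with a normal background the limit was recovered within 0.0179. The simulated expressed genes lay far above that background, so this checks the calculation and not the accuracy of the limits on the real arrays. Groups were compared with limma 3.58.1 under R 4.3.3 (functions lmFit and eBayes) with 1 mean per group over all 7 arrays, which leaves 2 residual degrees of freedom and a prior of 1.28, and p values were adjusted by Benjamini-Hochberg over 21428 genes. Tested on data simulated for the AIC against the nucellus over 21428 genes, the test called 0 of 100 genes changed by 1 and 65 of 100 changed by 4 on the log2 scale. The design names the AIC and nucellus samples biological replicates, while the sources used here do not tell which plants entered each pool, so p values measure the spread between these samples. No replicate number was used as a pair in the main fit, since the labels do not say that equal numbers share an origin. The deviations of the AIC and nucellus arrays with equal numbers had an r of 0.03 across genes. Whether equal numbers share an origin was not tested. Arrays have no read depth, and their number limits the precision. Alternatives were quantile normalization, a filter on low values, a trended prior, the 4 AIC and nucellus arrays alone, a replicate block, other limits and the omission of single AIC or nucellus arrays. Leaving out an egg, central or synergid cell array was added after seeing the data. Tables were handled with pandas 2.3.3 and numpy 2.4.6, densities with scipy 1.17.1 and plots with matplotlib 3.10.9 in Python 3.11.15.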

Additional observations from a re-analysis of the deposited data

How the results depend on the processing

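The number of calls by limma over all genes was 0 under 46 of 47 alternatives and 0 for the members under 47 of 47, while quantile normalization gave 3 genes for the egg cell against the AIC in place of 0. The filter on low values left 4 members to test, *CMT3*, *CMT2*, *DRM1* and *DRM2*. Omitting an AIC or nucellus array left 1 residual degree of freedom in place of 2, so these alternatives had little power to give a call. With the replicate block, in the fit of the 4 AIC and nucellus arrays, 0 genes passed and 869 had an unadjusted p below 0.05. The differences of the members did not change sign under 170 of 189 alternatives. These include, for each member, the egg cell against the AIC with a nucellus array left out. No nucellus array enters that difference, so it could not change there, and the count overstates the stability. Leaving out an AIC or nucellus array moved the difference of AIC and nucellus from -0.89 to 0.16 for *CMT3*, from -0.43 to 0.74 for *CMT2*, from -0.114 to 0.0907 for *DRM1*, from -0.00204 to 0.0168 for *DRM2*, from -0.19 to 0.0877 for *DML2* and from -0.12 to 0.84 for *DDM1*. For the egg cell against the AIC it moved from -0.0793 to 0.00888 for *MET1* and from -0.0448 to 0.16 for *DRM1*. Leaving out any array moved the difference of the gametophyte and the younger stage from -0.0141 to 0.51 for *CMT3*, from -0.15 to 0.42 for *DRM1*, from -0.0182 to 0.0316 for *DRM2* and from -0.63 to 1.05 for *DDM1*. Quantile normalization turned *DRM2* to -0.000296 for the AIC against the nucellus, to -0.0496 for the gametophyte and to 0.0798 for the egg cell against the other gametophytic cells, where *MET1* turned to 0.0296, and *DME* to -0.0924 for the central cell. The cause was not tested. Of the members 2 were above the limit on both AIC arrays, with a range of 2 to 4 when an AIC array was left out, and 4 on at least 1 of them. With the upper quartile as the limit, 2 members in place of 4 passed in the nucellus and 1 in place of 4 in the synergid cells. Low values near the background, the match of the probes to *Boechera* and 1 array per gametophytic cell type limit what could be detected, and cross-hybridization between related members was not tested.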

Other observations

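The supply of methyl groups lies upstream of all methyltransferases. Of 7 measured genes of this list, 6 were above the background limit on all 7 arrays. *SAHH1* (AT4G13940), which removes the by-product of methylation, read 9.17 and 9.26 in AIC 1 and 2, 9.26 and 9.02 in nucellus 1 and 2, 9.73 in the egg cell, 7.18 in the central cell and 8.97 in the synergid cells. The central cell minus the mean of egg and synergid cells was -2.17 ± 0.17 (SE) (adjusted p = 0.187 in limma). *MAT3* (AT2G36880), which makes the methyl donor S-adenosylmethionine, read 9.81 and 8.31 in AIC 1 and 2, 9.84 and 9.19 in nucellus 1 and 2, 7.38 in the egg cell, 5.46 in the central cell and 7.28 in the synergid cells. The gametophytic cells minus the AIC and nucellus gave -2.58 ± 0.50 (adjusted p = 0.166 in limma). The central cell array has the narrowest spread of all genes, an SD of 1.11, and the part of this in the result was not tested.

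Of 7 measured replication genes 0 were above the limit on all 7 arrays. *PCNA2* (AT2G29570), a clamp of the replication fork, read 7.77 and 8.75 in AIC 1 and 2, 7.36 and 2.98 in nucellus 1 and 2, 8.43 in the egg cell, 4.53 in the central cell and 3.42 in the synergid cells. Both nucellus arrays thus fell on opposite sides of the limit. *MCM3* (AT5G46280), a subunit of the replicative helicase, read 5.05 and 5.95 in AIC 1 and 2, 4.62 and 3.15 in nucellus 1 and 2 and between 3.05 and 3.60 in the gametophytic cells. *PCNA2* and *MCM3* were thus above the limit on 4 and 3 arrays.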
